A study of Mus musculus with 6 samples.

Results

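The genes examined are 10 genes of prostaglandin synthesis and response: the phospholipase Pla2g4a, the cyclooxygenases Ptgs1 and Ptgs2, the terminal synthases Ptges, Ptgis and Ptgds, and the prostaglandin E receptors Ptger1, Ptger2, Ptger3 and Ptger4. They were taken by gene name from a count table of 54532 mouse genes, and all 10 were present and passed the filter on low counts. The RNA-seq libraries came from cultures of primary mouse cortical astrocytes, 3 from pups of genotype GFAP-Cre::NEOf/f (the knockout) and 3 from littermate controls. In the knockout, Cre recombinase driven by the promoter of the astrocyte gene Gfap acts on a floxed Neo1 allele. Neo1 encodes neogenin, a cell surface receptor that binds netrins, repulsive guidance molecules and bone morphogenetic proteins. The controls are labelled only as control, with library names that read Neoff, and the sources used here do not say whether they carried Cre or the floxed allele, which exon is deleted or how old the pups were. Libraries are labelled as biological replicates without a named animal or dish, so p-values measure the spread between these libraries, which may be technical.

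Prostaglandins are short-lived lipid signals made from arachidonic acid. A phospholipase A2 frees arachidonic acid from membrane phospholipid, a cyclooxygenase turns it into the unstable intermediate prostaglandin H2, and a terminal synthase turns that into prostaglandin E2, D2, F2alpha or I2 (prostacyclin). Each product acts on its own G protein-coupled receptors, and prostaglandin E2 has the EP receptors, of which EP2 and EP4 raise cyclic AMP, EP3 mostly lowers it and EP1 acts through calcium. Astrocytes are a known source of prostaglandin E2 in brain, and Ptgs2 and Ptges are known as genes that inflammatory signals induce in them.

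Total counts ran from 60819277 to 106081115 a library, and 18530 genes were tested. All levels below are normalised read counts (CPM, counts scaled to library size with trimmed-mean factors), and means are given ± SD over the 3 libraries of a group. Neo1 itself measured 192 ± 5.20 CPM in controls and 104 ± 2.69 CPM in the knockout (log2 fold change −0.89, SE 0.05, adjusted p = 5.8e-11). Here and below, an adjusted p is from the quasi-likelihood test of edgeR, adjusted by Benjamini-Hochberg over all tested genes, with 0.05 as the threshold for a call. In the principal components of all tested genes, the first (49.3% of the variance) separated the genotypes. The second (19.6%) set knockout replicate 2 apart from the other knockout libraries. Of all tested genes, 38.3% were called, 19.6% higher and 18.7% lower in the knockout. With libraries scaled by total counts alone, the split over all genes moved from 3627 higher and 3466 lower to 2921 higher and 4499 lower, and the median log2 fold change shifted by −0.06. Astrocyte markers in controls ranged widely, with Gfap at 946 ± 20.8 CPM, the glutamate transporter Slc1a3 at 338 ± 7.25 CPM and S100b at 11.4 ± 1.08 CPM. Summed marker levels in controls were 3138 to 3218 CPM for the astrocyte list and 3171 to 3369 CPM for the fibroblast and meningeal list. The pericyte and smooth muscle list summed to 4258 to 4463 CPM, so some markers of other cell types were also abundant. These sums are not per length and rest mainly on a few genes, such as Acta2 (3849.9 ± 106.4 CPM) and Col1a1 (1950 ± 80.7 CPM). Other markers of the same lists, such as Kcnj8 (0.110 ± 0.0717 CPM) and Slc6a13 (0.0255 ± 0.0296 CPM), were near 0 in controls. In the knockout 8 of 12 astrocyte markers fell, Gfap to 431 ± 3.85 CPM, and 2 rose. The risers were the water channel Aqp4, from 605 ± 35.5 to 879 ± 31.2 CPM, and Slc1a2, from 133 ± 8.41 to 371 ± 16.6 CPM.

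The sequence at the start sites of the cyclooxygenases, Ptges and Pla2g4a is shown. These genes rose in the knockout, but so did Ptgis, Ptger2 and Ptger4, so the rise does not single them out. RefSeq promoters on GRCm38.p6 were matched for 8 of the 10 genes. Each sequence below runs from 250 bases before the first transcribed base through the first 30 transcribed bases, on the strand of the gene, and capitals mark matches to any of 8 motifs.
Ptgs2, chr1:150099781-150100060, plus strand: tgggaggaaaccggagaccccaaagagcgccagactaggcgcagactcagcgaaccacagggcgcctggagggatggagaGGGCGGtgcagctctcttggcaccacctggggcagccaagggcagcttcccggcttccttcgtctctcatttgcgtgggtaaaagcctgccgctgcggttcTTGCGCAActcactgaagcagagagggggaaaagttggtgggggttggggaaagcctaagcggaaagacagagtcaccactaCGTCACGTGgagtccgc
Ptges, chr2:30903268-30903547, minus strand: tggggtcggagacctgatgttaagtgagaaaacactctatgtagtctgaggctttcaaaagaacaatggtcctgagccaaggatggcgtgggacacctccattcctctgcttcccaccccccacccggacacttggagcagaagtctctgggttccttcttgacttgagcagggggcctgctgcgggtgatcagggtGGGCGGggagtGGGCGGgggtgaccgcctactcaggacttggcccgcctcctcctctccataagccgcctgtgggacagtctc
Pla2g4a, chr1:149961261-149961540, minus strand: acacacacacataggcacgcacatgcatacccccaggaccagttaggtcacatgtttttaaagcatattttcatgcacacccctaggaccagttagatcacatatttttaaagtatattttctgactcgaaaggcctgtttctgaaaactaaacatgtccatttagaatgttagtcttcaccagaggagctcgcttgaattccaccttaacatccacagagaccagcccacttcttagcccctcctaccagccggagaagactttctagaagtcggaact
Ptgs1, chr2:36230176-36230455, plus strand: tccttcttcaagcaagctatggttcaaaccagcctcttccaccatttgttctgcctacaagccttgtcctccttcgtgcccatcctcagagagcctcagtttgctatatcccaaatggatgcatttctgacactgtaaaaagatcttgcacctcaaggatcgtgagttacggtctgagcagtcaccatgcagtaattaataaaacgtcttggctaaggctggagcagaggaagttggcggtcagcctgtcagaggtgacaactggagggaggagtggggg
The motifs were the TATA box TATAAA, the E-box CACGTG, the cyclic AMP response element half-site CGTCA, AP-1 TGANTCA, C/EBP TTGCNNAA, GAS TTCNNNGAA, the GC box GGGCGG and NF-kB GGNNTTTCC, each searched on both strands. In the Ptgs2 window, counted from 1 at the first transcribed base, an E-box at 17 to 22 overlapped a CRE half-site at 14 to 18. The same window held a C/EBP match at −69 to −62 and a GC box at −170 to −165. The Ptges window held a pair of GC boxes, at −53 to −48 and −42 to −37. The Pla2g4a window, at the start that matches the 5′ end of the gene, and the Ptgs1 window held none of the 8. Of the windows not printed, Ptger3 held 3 GC boxes, Ptger4 held 4 and Ptgds an AP-1 match at −35 to −29, and Ptger2 held no match. A second RefSeq start of Pla2g4a, at 149922439 inside the gene, had a TATA box match at −200 to −195. Among 32851 RefSeq promoter windows of the same length, 6.79% held the E-box, 19.9% the CRE half-site, 10.4% the C/EBP motif and 34.7% the GC box. The shares for motifs with no match in these 4 windows were 13.1% for the TATA box, 7.46% for AP-1, 7.83% for GAS and 5.49% for NF-kB. A match describes letters in a window and not binding, and these libraries measured RNA only. Sites outside the windows were not searched, and each position depends on the RefSeq start used, so a missing match does not mean that the promoter lacks the motif.

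Genes of prostaglandin synthesis and response were mostly higher in the knockout. Of the 10 genes, 7 rose, 1 fell and 2 were not called, against 38.3% of all tested genes called. The risers were the phospholipase, both cyclooxygenases, the synthases for prostaglandin E2 and prostacyclin, and the receptors EP2 and EP4. The one that fell was the prostaglandin D2 synthase Ptgds. The median log2 fold change of the 10 genes was 0.75, beside −0.0018 over all tested genes. The 10 genes were chosen with earlier results of these data known, so these contrasts describe the list and are not an independent test of it. For 8 of the 10 genes the ranges of the groups were apart, as they were for 49.3% of all tested genes.

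**Figure D1:**
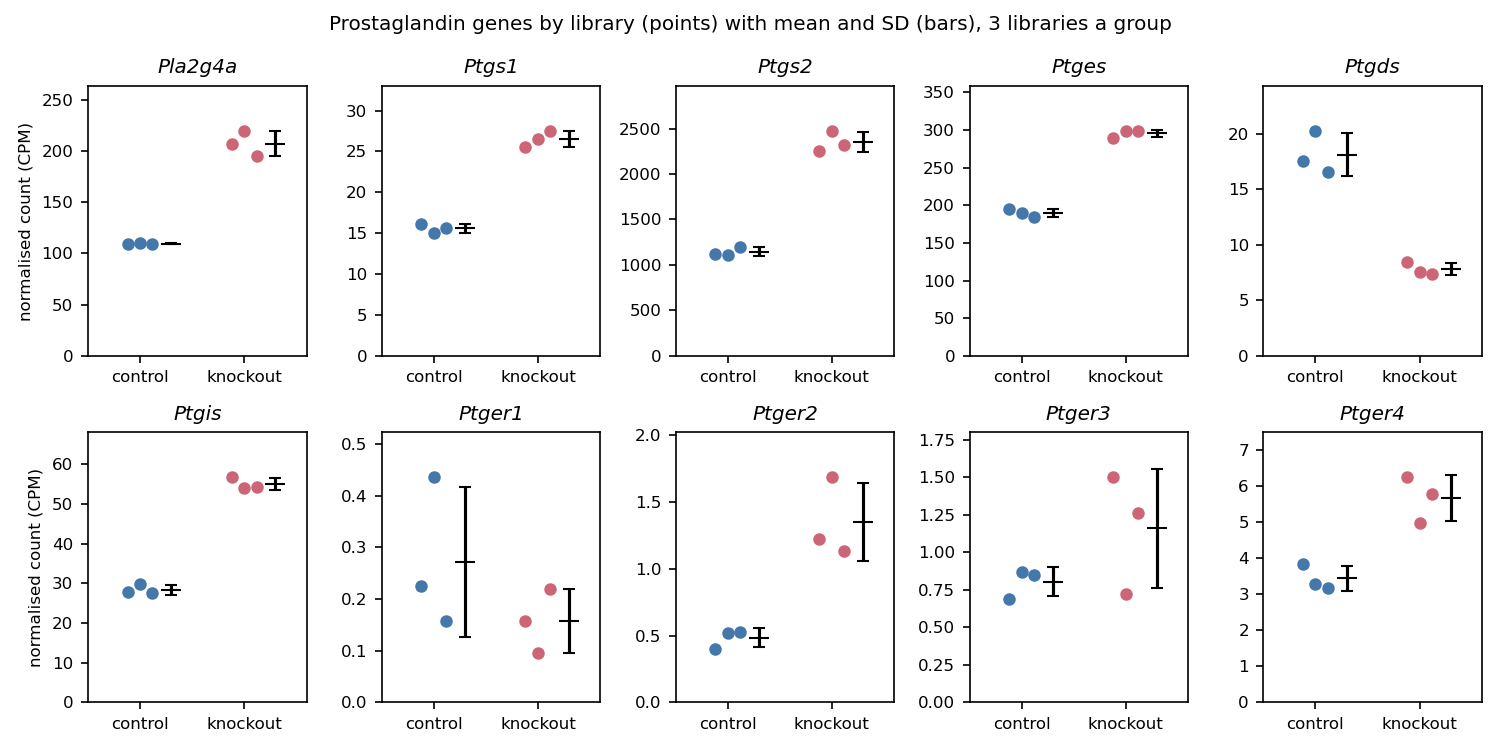
Normalised read count (CPM) of each of the 10 genes in each library, by genotype; points are the 3 libraries of a group and bars are the mean and SD, and each panel has its own axis from 0. Ptgs2 sat between 1111 and 1202 CPM in controls and between 2257 and 2473 CPM in the knockout, while Ptger1 and Ptger3 overlapped between the groups.

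Pla2g4a encodes cytosolic phospholipase A2 alpha, the enzyme that releases arachidonic acid for prostaglandin synthesis. The gene lies on chromosome 1 at 149829618 to 149961290 (GRCm38, minus strand). It measured 109.0, 110.3 and 109.7 CPM in control replicates 1 to 3 and 207, 220 and 195 CPM in knockout replicates 1 to 3. Every knockout library lay far above every control library, and the knockout libraries were the more spread. The log2 fold change was 0.92 (SE 0.05, adjusted p = 1.0e-10), a 1.89-fold higher level.

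Ptgs2 encodes the inducible cyclooxygenase COX-2 and was the most abundant of the 10 genes. It lies on the same chromosome as Pla2g4a, at 150100031 to 150108227 on the plus strand. Its level was 1119.6, 1111 and 1202 CPM in the 3 controls and 2257, 2473 and 2319 CPM in the 3 knockout libraries. The lowest knockout library was well above the highest control. The log2 fold change was 1.04 (SE 0.04, adjusted p = 4.0e-12), with a 95% confidence interval from 0.94 to 1.13.

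Ptgs1, on chromosome 2 at 36230426 to 36252272, encodes COX-1, the cyclooxygenase usually described as constitutive. Controls measured 16.1, 15.1 and 15.6 CPM and knockout libraries 25.6, 26.5 and 27.5 CPM. The groups did not overlap, and the spread within each was narrow. The level was 1.70-fold higher in the knockout (log2 fold change 0.77, SE 0.07, adjusted p = 2.3e-07). Against a minimum fold of 1.5 in place of no change, Ptgs1 narrowly missed the threshold (adjusted p = 0.052). Of the exon bases of Ptgs1, 3.81% are shared with an unclassified gene model on the opposite strand that held 20 reads in all 6 libraries.

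The neighbourhood of Ptgs2 held a pair of further transcripts, named here after their values were seen. Ptgs2os starts 68 bases before Ptgs2 and runs away from it on the opposite strand, at 150074873 to 150099963. It shares no exon with Ptgs2, although 183 bases of the Ptgs2 window printed above are its exon. Its level was 3.30, 2.87 and 2.60 CPM in controls and 8.78, 8.30 and 8.41 CPM in the knockout. Like Ptgs2 it rose (log2 fold change 1.55, SE 0.14, adjusted p = 8.8e-08), and its groups did not overlap. Ptgs2os2 lies on the opposite strand, with its near end 50816 bases beyond the end of Ptgs2. Ptgs2os2 rose from 1.09 ± 0.226 to 4.63 ± 1.25 CPM (log2 fold change 2.07, SE 0.23, adjusted p = 1.4e-06). The highest library was knockout replicate 2, at 6.07 CPM.

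Of the terminal synthases, those for prostaglandin E2 and prostacyclin rose and the one for prostaglandin D2 fell. Ptges, on chromosome 2 at 30889471 to 30929863, encodes the membrane enzyme mPGES-1, which is known to be induced along with COX-2 and makes prostaglandin E2. It measured 196, 189 and 184 CPM in controls and 289.6, 298 and 298 CPM in the knockout. The groups were far apart and the knockout libraries nearly equal. The log2 fold change was 0.64 (SE 0.04, adjusted p = 1.9e-09), a 1.56-fold higher level. Against a minimum fold of 1.5 the adjusted p was 0.39.

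Ptgis, the prostacyclin synthase on chromosome 2 at 167191805 to 167240604, is best known from vessel walls and fibroblasts. Controls measured 27.8, 29.9 and 27.6 CPM and knockout libraries 56.7, 54.1 and 54.2 CPM. No library of one group came near the other group. The level was 1.93-fold higher (log2 fold change 0.95, SE 0.06, adjusted p = 1.0e-09). Markers of the cell types known for Ptgis did not all move one way. The marker counts stand beside 38.3% of all tested genes called, 19.6% higher and 18.7% lower. Of 11 tested fibroblast and meningeal markers, 6 rose and 1 fell, and their summed level went from 3171 to 3369 CPM in controls to 4798 to 5443 CPM in the knockout. Among these, the collagen gene Col1a2 rose from 864 ± 18.1 to 1507 ± 60.8 CPM, and the meningeal transporter Slc6a13 was near 0 in both groups (0.0255 ± 0.0296 and 0.0963 ± 0.103 CPM). Of 8 tested endothelial markers, 4 rose and none fell, with sums of 97.8 to 102.2 CPM and 158.5 to 163.8 CPM. The risers were Cdh5 (26.8 ± 0.439 to 53.4 ± 1.93 CPM), Flt1, Kdr and Esam. The 4 not called were low in both groups: Pecam1 (1.06 ± 0.134 and 1.40 ± 0.826 CPM), Tek (1.06 ± 0.207 and 1.54 ± 0.263 CPM), Emcn (0.119 ± 0.0321 and 0.195 ± 0.0510 CPM) and Ly6c1 (1.81 ± 0.0798 and 1.37 ± 0.139 CPM). The endothelial gene Cldn5 was near 0 (0.0876 ± 0.10 and 0.0462 ± 0.0425 CPM) and could not be tested. Of 8 tested pericyte and smooth muscle markers, 2 rose and 4 fell, with sums of 4258 to 4463 CPM and 3113 to 3154 CPM. Among these, the smooth muscle actin gene Acta2 fell from 3849.9 ± 106.4 to 2685 ± 29.4 CPM and the pericyte receptor gene Pdgfrb rose from 80.3 ± 3.17 to 115 ± 3.56 CPM. The part of these cell types in the Ptgis result was not tested, and in bulk samples fewer cells of a type and less RNA per cell cannot be told apart.

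Ptgds encodes the lipocalin-type prostaglandin D synthase, an abundant product of meninges, choroid plexus and oligodendrocytes in brain. It lies on chromosome 2 at 25466709 to 25470046. Controls measured 17.5, 20.2 and 16.5 CPM and knockout libraries 8.46, 7.59 and 7.40 CPM. Every knockout library was below every control. The level was 2.31-fold lower in the knockout (log2 fold change −1.21, SE 0.10, adjusted p = 5.4e-08). Markers of the cells that usually carry Ptgds did not all move one way. For comparison, 38.3% of all tested genes were called, 19.6% higher and 18.7% lower. Choroid plexus markers fell in 4 of 6 tested and rose in 1, with sums of 42.7 to 45.6 CPM in controls and 23.2 to 24.4 CPM in the knockout, and the choroid plexus gene Ttr went from 19.4 ± 0.404 to 0.0126 ± 0.0138 CPM. Oligodendrocyte lineage markers fell in 4 of 7 tested and rose in none, with sums of 173.8 to 186.6 CPM and 103.3 to 129.7 CPM. Those that fell were Olig1 (84.4 ± 3.20 to 46.4 ± 5.62 CPM), Cnp (69.0 ± 4.32 to 51.8 ± 5.21 CPM), Olig2 and Sox10. The mature oligodendrocyte gene Mog was near 0 (0.0731 ± 0.0503 and 0.0137 ± 0.0237 CPM), and the myelin gene Mbp measured 2.02 ± 0.291 and 1.62 ± 0.347 CPM without a call (adjusted p = 0.35). The fibroblast and meningeal list rose, as given beside Ptgis. Their part in the fall of Ptgds was not tested.

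The E-prostanoid receptors were scarce, and EP2 and EP4 rose among them. Ptger4, which encodes EP4, lies on chromosome 15 at 5206661 to 5244187 and was the most abundant receptor of the 4. It measured 3.84, 3.29 and 3.19 CPM in controls and 6.24, 4.98 and 5.77 CPM in the knockout. The groups did not overlap. The level was 1.65-fold higher (log2 fold change 0.72, SE 0.15, adjusted p = 0.0012), and against a minimum fold of 1.5 the adjusted p was 0.62. Exon bases of Ptger4 are shared with a pseudogene on the opposite strand (15.3% of them, 1 read in all libraries) and with Ttc33, also on the opposite strand (82 bases, 1.23% of them). Ttc33 held 8115 reads over the whole gene and Ptger4 held 2193, and how many fall in the shared bases was not tested.

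Ptger2, on chromosome 14 at 44988195 to 45003820, encodes EP2, which like EP4 couples to cyclic AMP. Its reads were few, 25, 36 and 57 in controls and 117, 123 and 83 in the knockout, or 0.402, 0.522 and 0.526 CPM against 1.23, 1.68 and 1.14 CPM. The lowest knockout library still had more than the highest control on either scale. The log2 fold change was 1.47 (SE 0.34, adjusted p = 0.0022), and the 95% confidence interval of 0.75 to 2.18 was the widest of the 8 called genes. Antisense models over Ptger2 share 4.74% and 2.77% of its exon bases and held 36 reads and 0 reads.

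Ptger3 and Ptger1 were not called. Ptger3, on chromosome 3 at 157566892 to 157645888, encodes EP3 and measured 0.691, 0.870 and 0.850 CPM in controls and 1.497, 0.724 and 1.26 CPM in the knockout. Knockout replicate 2 lay within the control range and the other two lay above it. The log2 fold change of 0.53 had a 95% confidence interval from −0.19 to 1.25 (adjusted p = 0.24), which includes both falls and rises. Ptger1, which encodes EP1 on chromosome 8 at 83666678 to 83672753, had 14, 30 and 17 reads in controls and 15, 7 and 16 in the knockout. Control replicate 2 was the highest library and knockout replicate 2 the lowest, and the groups overlapped (log2 fold change −0.77, 95% confidence interval −2.24 to 0.70, adjusted p = 0.43). The value of Ptger1 is uncertain in any case, since its reads were few and the sources do not say whether reads were counted by strand.

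**Figure D2:**
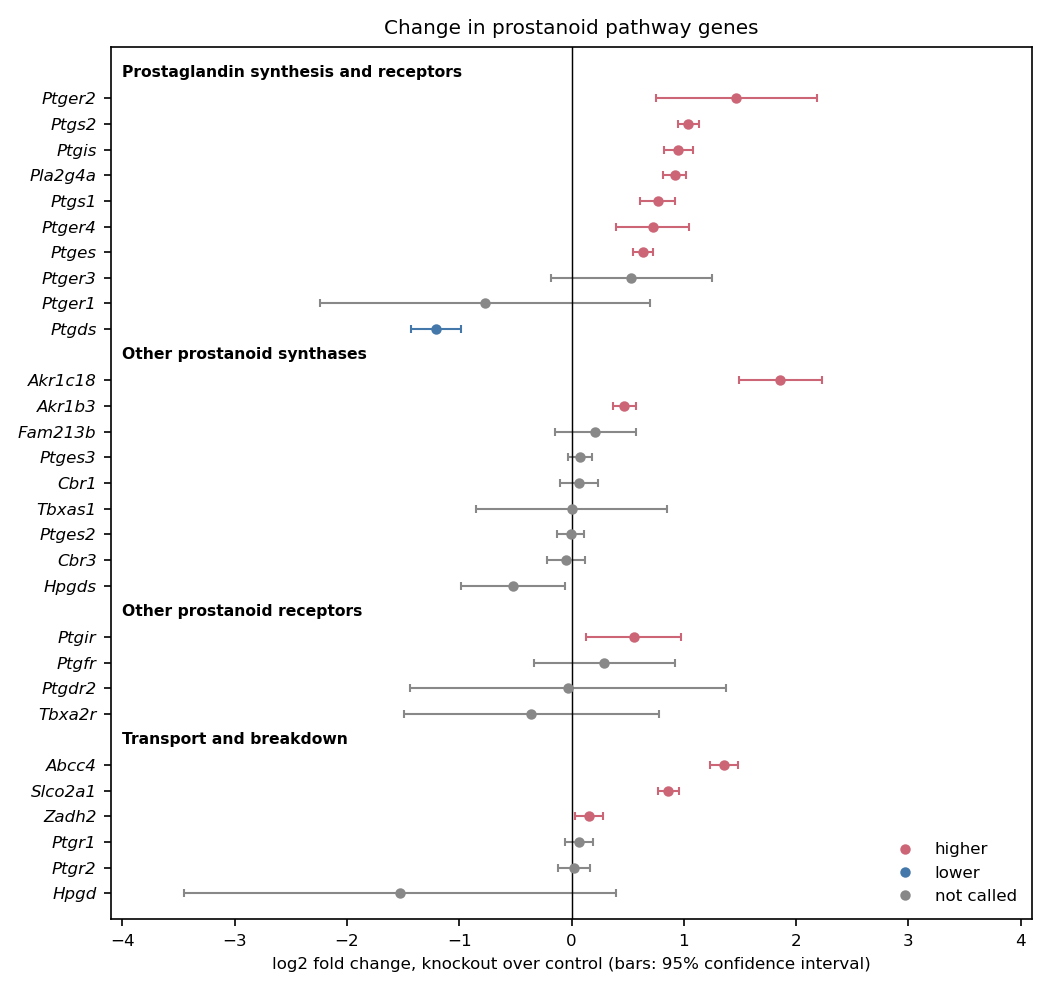
Log2 fold change of knockout over control for the 10 genes and for the other tested prostanoid synthases, receptors, transporters and breakdown enzymes; points are fitted values, bars 95% confidence intervals, and colour marks genes called higher, called lower or not called. The 7 risers among the 10 genes lie between 0.64 and 1.47, Ptgds lies at −1.21, and the intervals of Ptger1 and Ptger3 cross 0.

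Compared per kilobase of exon, Ptgs2 stood above all other members in both groups, at 249.8 ± 10.9 CPM per kb in controls and 513 ± 24.3 CPM per kb in the knockout. Ptges followed at 48.3 ± 1.43 and 75.1 ± 1.27 CPM per kb, and Pla2g4a at 17.2 ± 0.0997 and 32.4 ± 1.94 CPM per kb. Ptgis (11.1 ± 0.491) and Ptgds (11.0 ± 1.17) overlapped in controls, and in the knockout Ptgis stood at 21.4 ± 0.579 and Ptgds at 4.74 ± 0.343 CPM per kb. Ptgs1 was below Ptgds in controls (4.01 ± 0.132 CPM per kb) and above it in the knockout (6.83 ± 0.245). The receptors came last, with Ptger4 at 0.517 ± 0.0531 and 0.852 ± 0.0962 CPM per kb and the other three at no more than 0.324 CPM per kb in any library. The ranges of Ptger2 and Ptger1 overlapped in controls, and those of Ptger2 and Ptger3 in the knockout. Length here is the union of annotated exons, so a gene that uses only part of its exons is placed too low.

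**Figure D3:**
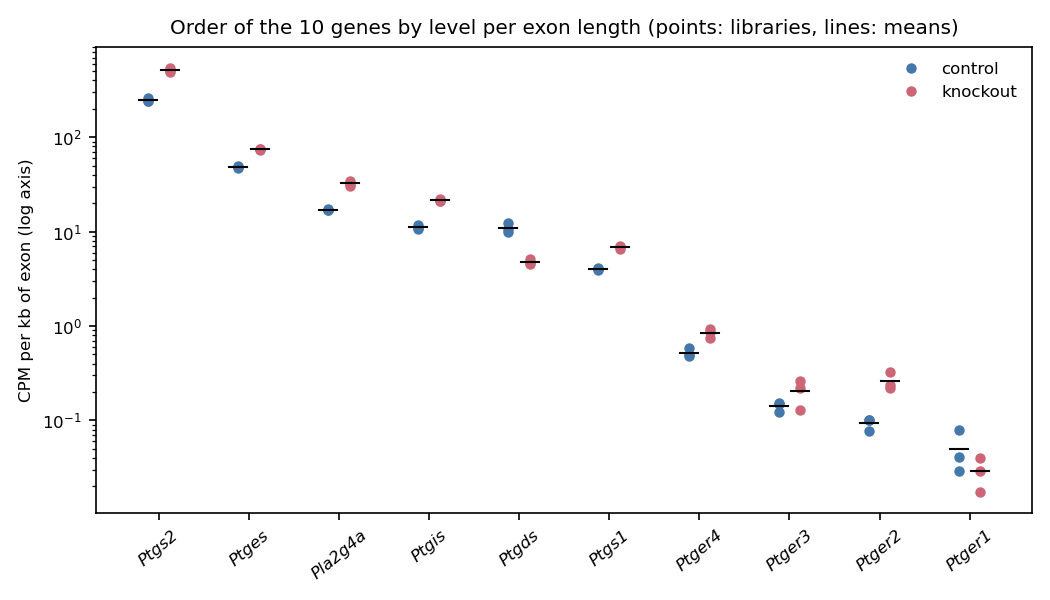
Level of each of the 10 genes per kilobase of exon (CPM per kb, log axis) in controls and knockout; points are the 3 libraries of a group and lines the means. Ptgs2 was highest in both groups, Ptgds dropped below Ptgs1 in the knockout, and the receptors lay lowest.

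Ratios within a library followed from these levels. Ptgs2 over Ptgs1 per length was 59.0, 62.6 and 65.4 in controls and 74.8, 79.1 and 71.5 in the knockout. COX-2 mRNA thus outweighed COX-1 mRNA in every library, and more so in the 3 knockout libraries. The ratio of Ptges to Ptgds, the synthases for prostaglandins E2 and D2, went from 4.43 ± 0.438 to 15.9 ± 1.37. The ratio of Ptgis to Ptgds went from 1.01 ± 0.0635 to 4.53 ± 0.204. Neither of these synthase ratios overlapped between the groups. Ptgs2 made up 73.0 ± 1.34% of the summed level per length of the 10 genes in controls and 78.3 ± 0.625% in the knockout. The ratio of EP4 to EP2 mRNA was 7.47, 4.93 and 4.73 in controls and 3.98, 2.31 and 3.97 in the knockout. It was lower in each knockout library, on few Ptger2 reads. These ratios are descriptions with no test of their own.

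Outside the 10 genes, genes of the wider pathway moved in both directions. Over 74 tested genes of these lists, lipoxygenases, inducers and cyclic AMP-responsive genes included, 15 rose, 13 fell and 46 were not called, with a median log2 fold change of 0.010. These shares are near those of all tested genes (38.3% called, 19.6% higher and 18.7% lower). Among 15 other tested phospholipases and lipases of arachidonate release, 2 rose, 3 fell and 10 were not called (median −0.11). Pla2g4c, the cytosolic phospholipase A2 gamma gene, rose from 0.639 ± 0.0534 to 2.81 ± 0.514 CPM (log2 fold change 2.13, SE 0.25, adjusted p = 3.0e-06). Pla2g16, which encodes an acyltransferase and phospholipase known from adipocytes, rose from 34.8 ± 0.237 to 71.7 ± 1.17 CPM (1.04, SE 0.05, adjusted p = 5.3e-11). Secreted enzymes were among those that fell. Pla2g7, which inactivates platelet-activating factor, went from 60.96 ± 0.629 to 43.4 ± 2.70 CPM (−0.49, adjusted p = 3.2e-06), and Pla2g5, a secreted phospholipase A2, from 4.08 ± 0.237 to 2.42 ± 0.591 CPM (−0.75, adjusted p = 0.0049). Mgll, the monoacylglycerol lipase that supplies much of the arachidonic acid for prostaglandins in brain, measured 41.3 ± 1.82 and 40.4 ± 3.24 CPM and was not called (95% confidence interval −0.18 to 0.11).

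Of 9 other prostanoid synthases, 2 rose and none fell (median log2 fold change 0.065). The shares over all tested genes were 38.3% called, 19.6% higher and 18.7% lower. The other prostaglandin E synthases, Ptges2 (50.2 ± 0.907 and 49.8 ± 1.30 CPM) and Ptges3 (124.6 ± 4.66 and 131.3 ± 5.07 CPM), were not called, with 95% confidence intervals of −0.13 to 0.11 and −0.03 to 0.18. Those intervals lie below that of Ptges, the inducible one, at 0.55 to 0.73. Akr1b3, an aldose reductase that can make prostaglandin F2alpha, rose from 151.8 ± 8.91 to 210.1 ± 4.09 CPM (log2 fold change 0.47, adjusted p = 5.8e-07). Akr1c18, whose product reduces progesterone and prostaglandins, rose from 2.87 ± 0.836 to 10.3 ± 1.00 CPM (1.86, SE 0.18, adjusted p = 2.2e-07). Hpgds, the haematopoietic prostaglandin D synthase found in microglia and mast cells, measured 3.52, 2.23 and 2.82 CPM in controls and 1.91, 2.30 and 1.78 CPM in the knockout. Its groups overlapped and it was not called (log2 fold change −0.52, adjusted p = 0.073). Microglia and macrophage markers fell in 12 of 15 tested and rose in 1, with sums of 125.4 to 129.4 CPM and 80.6 to 86.7 CPM, and the microglial gene Cx3cr1 measured 0.850 ± 0.429 and 0.164 ± 0.144 CPM. Ptgs1, which microglia also express, rose while this list fell, and the part of microglia in either value was not tested. Mast cell genes other than Kit were at or near 0.

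Of the other prostanoid receptors, 4 of 5 could be tested and only Ptgir was called. Ptgir, the prostacyclin receptor, measured 1.88, 2.13 and 2.58 CPM in controls and 2.77, 3.24 and 3.71 CPM in the knockout (log2 fold change 0.55, SE 0.20, adjusted p = 0.037). That call was lost without control replicate 1 (adjusted p = 0.15), without control replicate 2 (0.11), without knockout replicate 3 (0.16) and with total-count scaling (0.063). Ptgfr, the prostaglandin F2alpha receptor, measured 1.34 ± 0.503 and 1.66 ± 0.352 CPM and was not called (adjusted p = 0.49). Ptgdr, the prostaglandin D2 receptor DP1, had 3, 32 and 3 reads in controls and 0 in each knockout library, too few in most libraries to be tested. Nearly all of its reads came from control replicate 2.

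Genes that move prostaglandins across membranes rose. Slco2a1, the prostaglandin transporter that takes prostaglandins up, measured 138, 133 and 144 CPM in controls and 249.5, 254 and 250.2 CPM in the knockout. Abcc4, an export pump that carries prostaglandin E2 among other anions, measured 25.3, 23.3 and 24.8 CPM in controls and 62.2, 63.1 and 62.7 CPM in the knockout. Both groups of 3 were tight and far apart for either gene. The log2 fold changes were 0.86 for Slco2a1 (SE 0.05, adjusted p = 6.6e-11) and 1.36 for Abcc4 (SE 0.06, adjusted p = 6.1e-12). Of the breakdown enzymes, only Zadh2 was called. Hpgd, the main prostaglandin-inactivating dehydrogenase, had 20, 32 and 16 reads in controls and 7, 0 and 18 in the knockout and was not called (adjusted p = 0.21). Ptgr1, a prostaglandin reductase, measured 73.9 ± 3.72 and 77.6 ± 5.23 CPM and was not called (adjusted p = 0.40). Zadh2, another prostaglandin reductase, measured 58.4 ± 3.95 and 65.1 ± 2.04 CPM (log2 fold change 0.16, adjusted p = 0.044). Without control replicate 1, control replicate 2, knockout replicate 1 or knockout replicate 3, the adjusted p of Zadh2 was 0.24, 0.15, 0.16 and 0.062, and it was 0.24 with total-count scaling and 0.056 with no filter.

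Among signals known to act on Ptgs2, more fell than rose while Ptgs2 rose. Of 13 cytokine, receptor and transcription factor genes listed as inducers or modulators of Ptgs2, 4 rose, 7 fell and 2 were not called (median log2 fold change −0.16). Of all tested genes, 38.3% were called, 19.6% higher and 18.7% lower. The list includes the antagonist gene Il1rn, so its count mixes directions of action. Tnf, an inflammatory cytokine, measured 155, 153 and 145 CPM in controls and 42.2, 47.1 and 41.8 CPM in the knockout, a 3.46-fold lower level (log2 fold change −1.79, SE 0.06, adjusted p = 8.4e-14). Il1b, the gene of interleukin-1 beta, fell from 145 ± 6.36 to 86.9 ± 8.52 CPM (−0.74, adjusted p = 4.3e-08), and Il1rn, the gene of its natural receptor antagonist, rose from 28.7 ± 2.24 to 47.5 ± 4.52 CPM (0.72, adjusted p = 7.8e-07). The cytokine and its antagonist moved in opposite directions. Egr1, an immediate-early transcription factor, fell from 24.9 ± 2.87 to 14.6 ± 1.97 CPM (−0.77, adjusted p = 1.5e-05). Cebpb and Cebpd encode C/EBP factors, whose motif the Ptgs2 window holds. Cebpb measured 89.5, 90.0 and 80.9 CPM in controls and 91.5, 58.0 and 89.1 CPM in the knockout, with knockout replicate 2 alone low and no call (adjusted p = 0.69). The microglia marker list given beside Hpgds also fell, and its part in the fall of Tnf and Il1b was not tested.

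Genes that act on Ptgs2 mRNA decay and genes that respond to cyclic AMP moved in both directions. Of 8 decay regulators, 1 rose, 2 fell and 5 were not called (median log2 fold change 0.014), a share called near the 38.3% of all tested genes. Zfp36, which encodes tristetraprolin and promotes the decay of Ptgs2 mRNA, fell from 56.6 ± 2.18 to 41.7 ± 1.96 CPM (−0.44, adjusted p = 1.3e-05). Celf2, an RNA-binding protein known to hold back Ptgs2 translation, fell by 0.21 on the log2 scale (adjusted p = 0.0032), and Tia1, a translational silencer of Ptgs2, rose by 0.26 (adjusted p = 0.0046). Of 10 cyclic AMP-responsive genes that lie downstream of EP2 and EP4, 1 rose, 1 fell and 8 were not called (median 0.10). Sik1, a salt-inducible kinase, rose from 26.9 ± 1.83 to 33.8 ± 3.32 CPM (0.33, adjusted p = 0.0029). Nr4a1, an orphan nuclear receptor, went from 21.01 ± 0.880 to 17.7 ± 1.31 CPM (−0.25, adjusted p = 0.022), and without control replicate 1, control replicate 2 or knockout replicate 2 its adjusted p was 0.064, 0.089 and 0.064. Pde4b, a phosphodiesterase that breaks down cyclic AMP, was not called (adjusted p = 0.071).

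**Figure D4:**
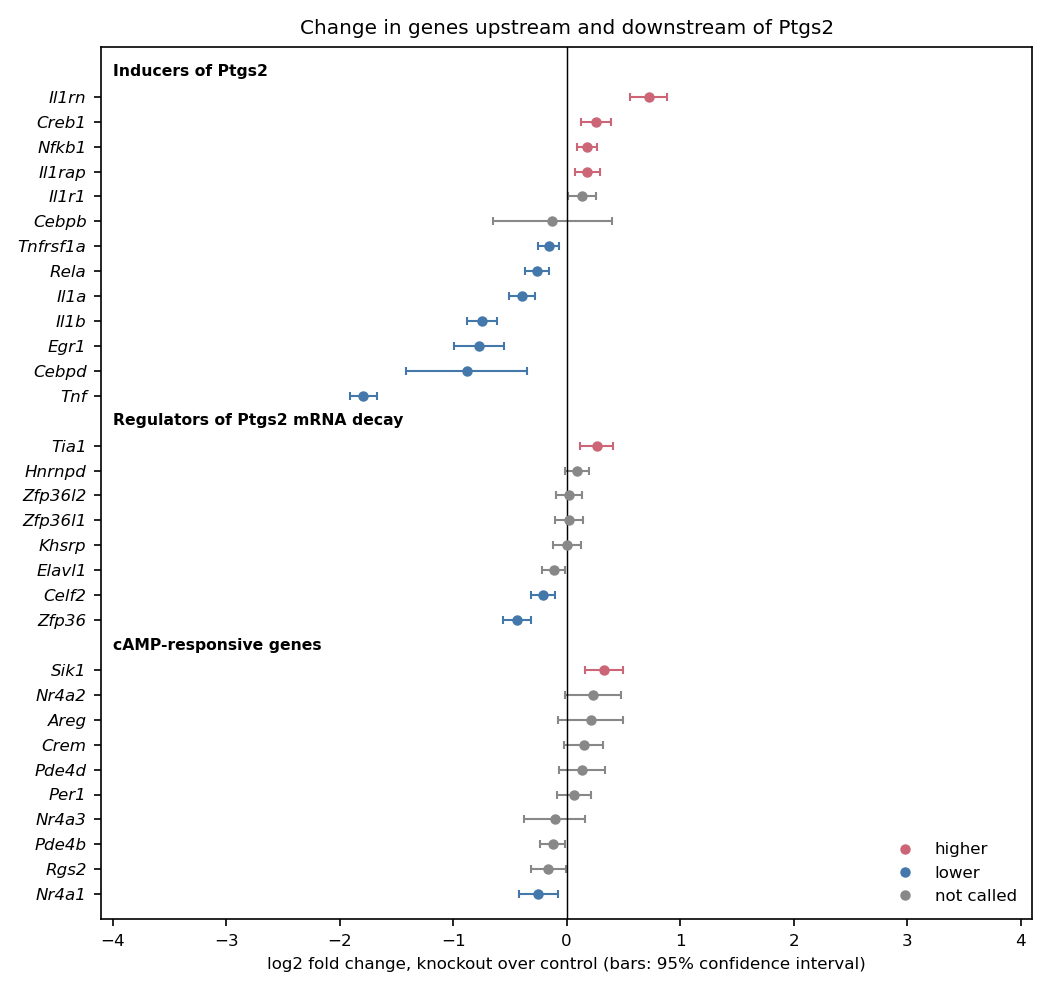
Log2 fold change of knockout over control for inducers of Ptgs2, regulators of Ptgs2 mRNA decay and cyclic AMP-responsive genes; points are fitted values and bars 95% confidence intervals, coloured by call. Tnf lies farthest to the left at −1.79 and Il1rn farthest to the right at 0.72, while the decay regulators and cyclic AMP-responsive genes lie between −0.44 and 0.33.

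Under 13 alternative ways of processing the counts, the direction of each of the 10 genes was kept in every alternative that gave it a value. Ptgs2 ranged from 0.97 to 1.07 on the log2 scale, Pla2g4a from 0.85 to 0.96, Ptgis from 0.89 to 0.98, Ptges from 0.57 to 0.66, Ptgs1 from 0.70 to 0.79 and Ptgds from −1.28 to −1.13. Ptger2 ranged from 1.28 to 1.58, with adjusted p between 5.5e-04 and 0.045. Ptger4 ranged from 0.65 to 0.81. Ptger1 (−1.08 to −0.27) and Ptger3 (0.30 to 0.77) were the least settled and were called in none.

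**Figure D5:**
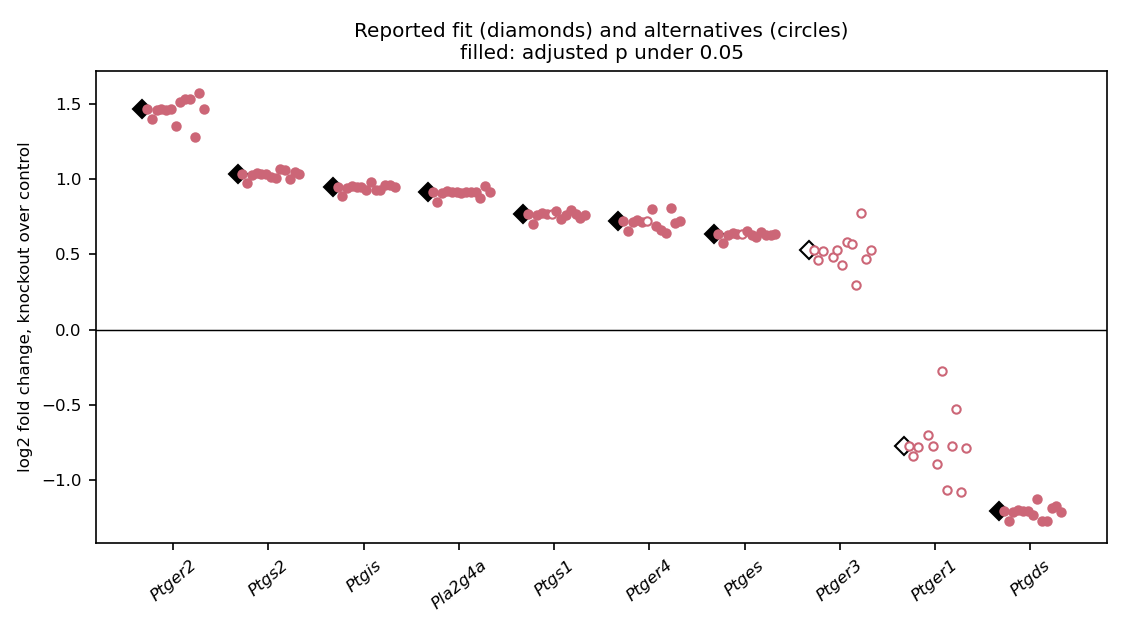
Log2 fold change of each of the 10 genes in the reported fit (diamonds) and under each alternative (circles), filled where the adjusted p was under 0.05. All values of a gene lie on one side of 0, and the open circles of Ptgs1, Ptger4 and Ptges come from the test against a minimum fold of 1.5.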

How the data were processed

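RNA extracted with Trizol was made into poly-T bead libraries, per the labels' protocols. HISAT2 2.2.1, featureCounts 2.0.6 and GRCm38 (mm10) are named in the submitters' processing notes. The annotation release, strand setting and treatment of multi-mapped reads are not stated in these sources. The values used are the raw read counts per gene deposited by the authors, with no unused sample column. GENCODE M21 matched 54409 identifiers and left 123 unmatched; it gave positions, exon lengths and overlaps. The analysis used R 4.3.3 with edgeR 4.0.16 (trimmed-mean scaling; filterByExpr, minimum count 10 and minimum total 15; robust quasi-likelihood fit, genotype only, two-sided, Benjamini-Hochberg over 18530 genes, threshold 0.05). The tested genes held 99.958% of counts. The fit was tested on simulated counts. No 2 libraries were duplicates: within a group they differed by a chi-square of 5.98 to 21.7 per gene. Near-identical transcripts were searched with BLAST 2.17.0 (95% identity, 100 bases) and found for the members only among the overlapping genes. A confidence interval or count limit covers the spread between these libraries and counting error only.

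The 10 genes, the pathway lists and the markers were chosen with earlier results of these data known. From each pathway list, up to 4 called genes with the smallest p and up to 2 uncalled genes with the highest level were named, and any prostanoid synthase, receptor, transport or breakdown gene could be named; Alox5, Cebpd, Ptgs2os and Ptgs2os2 fall outside that rule and were chosen after their values were seen. Alternatives were median-of-ratios scaling, total counts, no filter, at least 1 CPM in 3 libraries, a replicate block, a minimum fold of 1.5, DESeq2 1.42.0 and leaving out each library.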

Additional observations from a re-analysis of the deposited data

How the results depend on the processing

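Over 128 alternative values of the 10 genes, 125 kept their direction and their side of the threshold, 3 lost the call and none reversed; Ptger1 and Ptger3 fell below the filter of at least 1 CPM in 3 libraries and have no value there. The 3 losses were Ptgs1, Ptges and Ptger4 in the test against a minimum fold of 1.5, which called 5 of the 10 genes, 4 of them higher. The same test called 1014 of all genes (666 higher, 348 lower) and 8 pathway genes (6 higher, 2 lower), where the reported fit called 28. With total counts, 20 pathway genes were called lower in place of 13. Among 480 alternative values of 37 other genes, 434 kept direction and side, 33 lost the call, 9 gained one and 4 reversed. The reversals were all in genes not called, when a library was left out: Mgll ranged from −0.068 to 0.033, Ptges2 from −0.033 to 0.0015 and Cebpb from −0.24 to 0.058. With the replicate block, 8 of the 10 genes, 6884 of all genes and 27 pathway genes were called, and Zadh2 lost its call (adjusted p = 0.059). The shared replicate numbers did not pair the libraries: same-numbered deviations correlated at 0.0151, 0.0194 and −0.0082. With 3 libraries a group and fewer than 100 reads in most libraries, Ptger1 and Ptger3 allow no finer statement.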

Other observations

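Arachidonic acid also feeds the lipoxygenases, which make leukotrienes and hydroxy fatty acids. Of 9 tested genes of that branch, 1 rose, none fell and 8 were not called (median log2 fold change −0.13). The share called over all tested genes was 38.3%, with 19.6% higher and 18.7% lower. The riser was Cysltr2, a receptor for cysteinyl leukotrienes, with 22, 11 and 31 reads in controls and 113, 82 and 93 in the knockout, or 0.267 ± 0.0986 and 1.19 ± 0.0761 CPM (log2 fold change 2.16, SE 0.40, edgeR adjusted p = 3.6e-04). Lta4h, which encodes leukotriene A4 hydrolase and was the most abundant gene of the branch, measured 62.2 ± 2.75 and 56.7 ± 1.84 CPM and was not called (adjusted p = 0.070). Alox5, the 5-lipoxygenase gene that starts leukotriene synthesis, measured 2.78 ± 0.272 and 3.47 ± 1.08 CPM with overlapping groups and was not called (adjusted p = 0.29).

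Cebpd, the other C/EBP gene among the inducers, measured 289.7, 287 and 280.3 CPM in controls and 171, 113 and 181 CPM in the knockout. The groups did not overlap (log2 fold change −0.88, adjusted p = 0.027), but without any one control library the adjusted p was 0.075, 0.076 and 0.083, and without knockout replicate 1 it was 0.069. With no filter on low counts it was 0.060.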
